A study of Drosophila melanogaster with 4 samples.

Results

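The bithorax complex is the stretch of chromosome arm 3R that holds the Hox genes Ubx, abd-A and Abd-B. It was studied here as the interval 3R:12480000-12800000 of the FlyBase r5 genome build. Members were all enriched regions of the histone mark H3K9acS10P that share at least 1 base with this interval. They were 4 of the 4619 regions of ChIP replicate 1, 12 of the 10280 regions of ChIP replicate 2, and 27 of the 15374 regions of the series-level list, which the authors deposited for the whole series. The samples were whole wild-type Oregon-R embryos of Drosophila melanogaster aged 14 to 16 h. There were 2 ChIP samples made with 1 antibody lot and 2 input samples, which share replicate numbers with the ChIP samples. No treatment or mutant was included. Whether the replicates were separate collections of embryos is not stated in the labels, and their spread may be technical only.

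Hox genes encode homeodomain transcription factors that give body segments their identity. Ubx, known for setting the identity of the third thoracic and the first abdominal segment, abd-A, which acts in the segments behind them, and Abd-B, which acts in the hindmost abdominal segments and the genitalia, lie along the chromosome in the order of the body parts they pattern. Each is controlled by long stretches of enhancers, insulators and Polycomb response elements, and Polycomb proteins keep each gene silent in the segments where it is not used. The antibody's epitope joins acetylation of lysine 9 of histone H3, a mark of active genes, with phosphorylation of the neighbouring serine, which is known from mitotic chromosomes and from the interphase kinase JIL-1. Embryos of this age hold all segments together. In such a mixture, fewer nuclei with the mark and less mark per nucleus cannot be told apart.

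In the RefSeq gene table at hand, which is on Release 6 of the genome, all 3 members were found. They stood in the order Ubx, abd-A, Abd-B from low to high coordinates. The table lists 3 other protein-coding genes among them. CG31275 and Glut3 lie between Ubx and abd-A, and MSAmiP lies between abd-A and Abd-B. It also lists 7 long noncoding RNA genes, among them bxd and the iab RNAs, 1 antisense RNA gene and 2 microRNA genes that share a hairpin locus, mir-iab-4 and mir-iab-8, which are known to repress the Hox genes. Ubx is preceded by modSP, a serine protease gene, and Abd-B is followed by VhaM9.7-d, a gene for a subunit of the vacuolar proton pump. The table's build differs from that of the regions, so this order is all that was taken from it. No region was assigned to a promoter, exon or intron, and that the interval holds the 3 genes was taken from its definition.

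Little of the bithorax interval lay in H3K9acS10P regions. They covered 2.94% of it in ChIP replicate 1, against 13.7% of the 500 kb below it and 7.92% of the 500 kb above it. In ChIP replicate 2 they covered 6.52% of the interval, against 33.1% of the low flank and 16.4% of the high flank. The interval was thus the least covered of the 3 stretches in each replicate. The series-level list had the same order, with 14.1% of the interval covered, against 42.0% of the low flank and 21.7% of the high flank. That list is the authors' combined list and not a further replicate, so it adds no independent sample here or below. Both flanks together were covered 3.68 times as densely as the interval in replicate 1 and 3.79 times in replicate 2, and 2.26 times in the series-level list. In bases, regions filled 9.41 kb of the interval in replicate 1, 20.9 kb in replicate 2 and 45.0 kb in the series-level list.

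Averaged over the replicates, the covered share was 4.73% ± 2.53 in the interval and 17.8% ± 9.83 in both flanks together (SD, n = 2). The difference was -13.0 percentage points ± 7.30 (SD, n = 2), and it was negative in 2 of 2 replicates. An exact two-sided sign-flip permutation test over the replicates gave p = 0.5, which is the smallest value that 2 replicates allow, so no test here could pass a threshold. The difference was -7.87 points in replicate 1 and -18.2 points in replicate 2, which also held more regions on 3R, 2581 against 1100. It was -7.92 points on average when regions under the median score of their list were left out. That filter takes covered bases from the flanks as well as the interval. A smaller difference in points is thus not by itself a weaker contrast. In the series-level list the difference was -17.8 points, and -16.7 points with the filter.

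**Figure D1:**
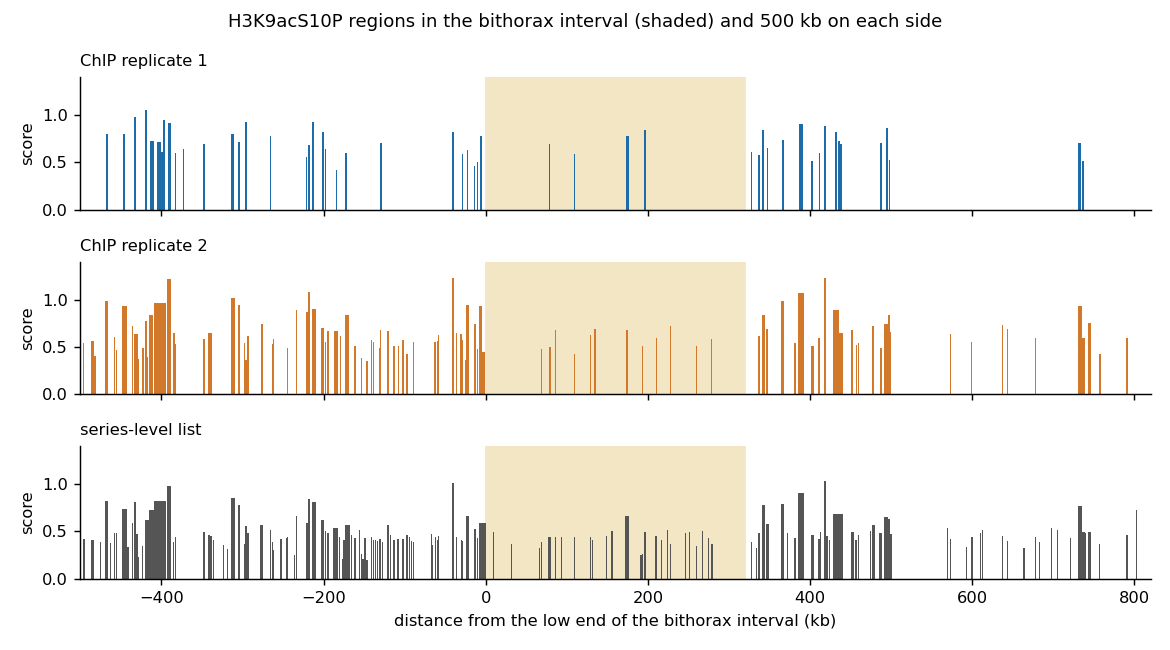
Enriched regions in the bithorax interval (shaded) and 500 kb on each side, in ChIP replicate 1, ChIP replicate 2 and the series-level list. The horizontal axis is the distance in kb from the low end of the interval. Each bar is 1 region, as wide as the region and as tall as its score, which is comparable only within 1 list. The shaded part holds 4, 12 and 27 bars from top to bottom.

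The interval also ranked low among other stretches of 3R. When 3R was divided into 85 further windows of the interval's length, none sharing a base with it, the interval's 2.94% in replicate 1 lay below the window mean of 9.06% ± 5.23 (SD over windows), and 6 windows were lower. In replicate 2 its 6.52% lay below a mean of 24.5% ± 9.85, with 2 windows lower. Its 14.1% in the series-level list lay below a mean of 33.2% ± 11.1, again with 2 windows lower. The interval was therefore among the least covered stretches of the arm in each list, but not the least covered one. Its difference from the window mean was -12.1 percentage points ± 8.40 over the replicates (SD, n = 2; exact sign-flip permutation test, p = 0.5). Windows are not replicates, so their ranks describe these lists and carry no p-value.

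Of these windows, 2 were lower than the bithorax interval in all 3 lists. They were 3R:3199971-3519971, with 0.833% covered in replicate 1, 3.40% in replicate 2 and 10.4% in the series-level list, and 3R:6719982-7039982, with 1.25%, 6.46% and 10.8% in that order. The value of 6.46% in replicate 2 was close to the interval's own 6.52%. Another placement of the windows gave similar ranks. With the grid shifted by 160 kb, 5 of 84 windows were lower in replicate 1 and 2 of 84 in replicate 2.

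**Figure D2:**
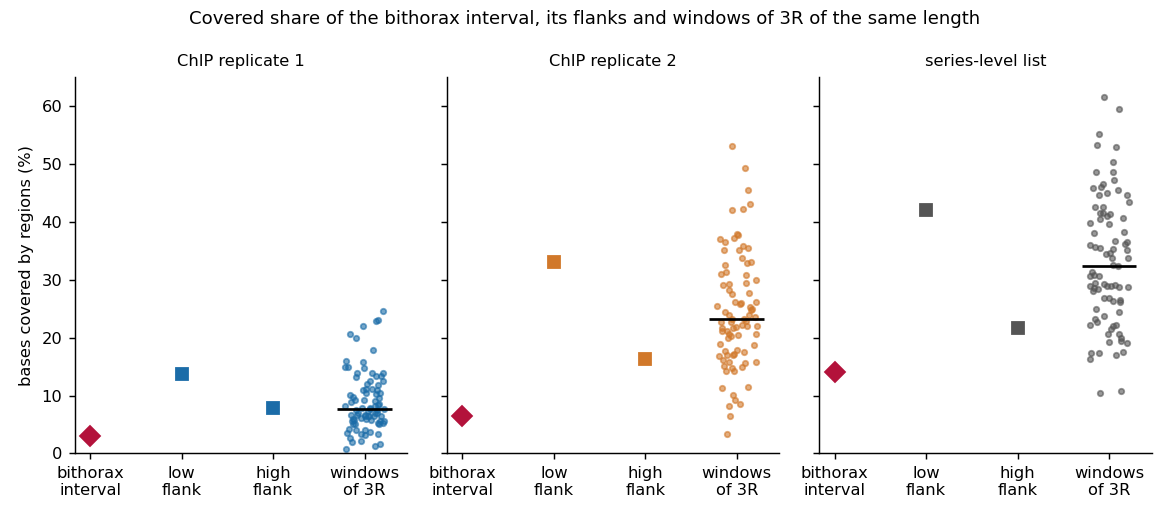
Share of bases covered by regions, in percent, for the bithorax interval (red diamond), its low and high flanks of 500 kb (squares) and 85 windows of 3R of the same length as the interval (points, with the median as a line), with 1 panel per list. The diamond lies below both squares in each panel and near the bottom of the windows, with 6, 2 and 2 windows below it from left to right.

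Regions were sparser in the interval than in both flanks and on 3R in each list. It held 12.5 regions per Mb in replicate 1, against 60.0 in the low flank, 34.0 in the high flank and 39.4 over all of 3R. Replicate 2 held 37.5 per Mb in the interval, against 132.0, 58.0 and 92.5. The arm as a whole was thus 3.15 times as dense in regions as the interval in replicate 1 and 2.47 times in replicate 2. The series-level list held 84.4 regions per Mb in the interval, close to the 92.0 of the high flank and below the 176.0 of the low flank and the 139.0 of 3R.

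Coverage was lower just inside each end of the interval than just outside it. The 50 kb just inside the low end, on the Ubx side, had no region in either replicate, while the 50 kb just outside it were covered to 22.7% in replicate 1 and 46.8% in replicate 2. At the high end, on the Abd-B side, the last 50 kb inside were covered to 0% in replicate 1 and 2.81% in replicate 2, against 21.0% and 25.8% in the first 50 kb outside. The same 4 stretches had, in the series-level list, 5.62% inside and 50.7% outside at the low end, and 7.99% inside and 31.4% outside at the high end. Lower coverage was not limited to the inner side of the low end. The next 50 kb outward, 3R:12380000-12429999, were covered to 0% in replicate 1, 16.9% in replicate 2 and 28.1% in the series-level list, so in replicate 1 they were as empty as the inner stretch. At the high end the next 50 kb outward were covered to 22.9%, 31.1% and 38.4%. Of the 2 inner stretches, the one on the Ubx side was the lower in replicate 2 and the series-level list, and both were at 0% in replicate 1.

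The only member that crossed an end was the first region of the series-level list, 3R:12471330-12480163, which is 8.83 kb wide with 164 bp inside the interval. It is the widest member, but it belongs to the low flank by its bases. In the replicates the nearest regions below the interval ended 4.74 kb and 1.29 kb outside it. Above it, the nearest regions began 6.91 kb outside in replicate 1, 16.1 kb in replicate 2 and 7.07 kb in the series-level list.

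In 10 kb bins, both ends of the interval were empty in the replicates. In the series-level list the last 3 bins were empty, and the first was covered to 14.6%, close to the 14.1% of the whole interval. Of its 32 bins, 5 held a region in replicate 1, or 15.6%, against 33.3% of all 10 kb bins of 3R. In replicate 2 it was 15 of 32, or 46.9%, against 64.8% on 3R. The series-level list marked 22 of 32, or 68.8%, against 80.9% on 3R. The share of marked bins was thus below that of the arm in each list, with no test since bins are not replicates. All 5 bins marked in replicate 1 were also marked in replicate 2, another 10 bins were marked in replicate 2 alone of the replicates, 7 in the series-level list alone, and 10 bins were empty in all 3 lists.

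**Figure D3:**
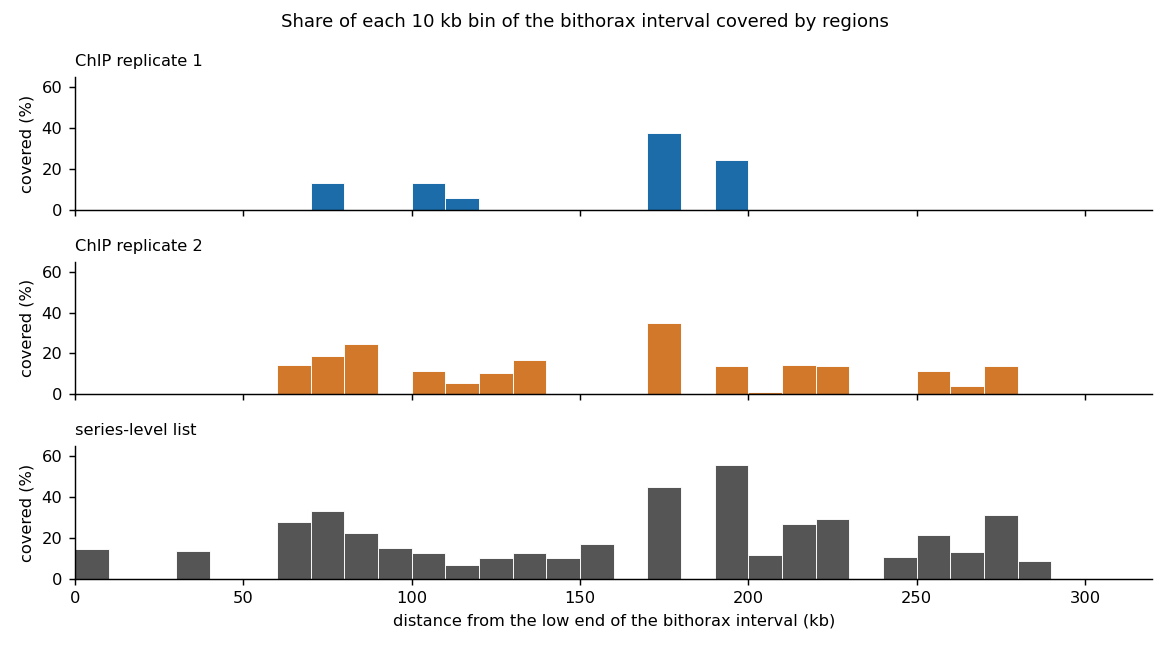
Share of each 10 kb bin of the bithorax interval covered by regions, in percent, against the distance in kb from the interval's low end, with 1 panel per list. Replicate 1 fills 5 of 32 bins, replicate 2 fills 15 and the series-level list 22, and the bins at both ends are empty in the replicates, while the first bin of the series-level list is covered to 14.6%.

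With the interval divided into 4 parts of 80 kb, the fullest was the part just above its middle, from 160 to 240 kb. In replicate 1 the 4 parts were covered to 1.64%, 2.34%, 7.79% and 0%, from low to high coordinates. In replicate 2 they were covered to 4.11%, 8.57%, 9.73% and 3.66%. The values of the series-level list were 11.1%, 13.4%, 21.1% and 10.7%. The last part, on the Abd-B side, was the least covered in each list. The fullest part stayed below the mean over windows of 3R in each list, which was 9.06%, 24.5% and 33.2% in the same order.

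Both replicates marked 3 sites in the interval. The widest was 3R:12652603-12656087, the 3485 bp that the replicates shared. There replicate 1 had a region of 3.77 kb, 3R:12652563-12656330, with a score of 0.78, replicate 2 a region of 3.48 kb with a score of 0.68, and the series-level list a region of 4.51 kb, 3R:12651819-12656332, with a score of 0.67. It was the highest-scoring member of the series-level list and the widest member of each replicate list. Scores are the authors' own values, on an unstated scale, and were compared only within 1 list.

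The next shared site was 3R:12588851-12590534, of 1684 bp. The region of replicate 2 was that stretch and lay within 3R:12588689-12590557 of replicate 1. It scored 0.59 in replicate 1 and 0.42 in replicate 2, the lowest member score in both, and 0.44 in the series-level list. The remaining shared site was 3R:12558284-12559595, of 1312 bp, where replicate 1 scored 0.70 and replicate 2 scored 0.50. There the whole 1.31 kb region of replicate 1 lay within a 2.85 kb region of replicate 2, 3R:12558126-12560974, and a 4.24 kb region of the series-level list, 3R:12556698-12560936, with a score of 0.44. Of the members that start inside the interval, this region and the one at 3R:12651819-12656332 were the 2 in the series-level list wider than 3 kb.

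The highest-scoring member of replicate 1 had no partner in replicate 2. It was 3R:12674776-12677240, of 2.46 kb, with a score of 0.84. The nearest region of replicate 2, 3R:12672556-12673940 with a score of 0.51, lay 835 bp before it. The series-level list held separate regions for both places, 3R:12672394-12674203 with a score of 0.26 and 3R:12674927-12677292 with a score of 0.49. Another region of that list, 3R:12670784-12672201, preceded them and had the lowest score of all its members, 0.25. These 3 regions lay within 1 bin of 10 kb, which was the fullest of the interval in the series-level list, at 55.9%.

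Replicate 2 marked 9 sites that replicate 1 did not. From low to high coordinates they scored 0.47, 0.68, 0.62, 0.69, 0.51, 0.59, 0.72, 0.51 and 0.58, against 0.42 to 0.68 at the shared sites of that replicate. They were narrow, each between 1.31 and 1.54 kb, against 1.68, 2.85 and 3.48 kb at the shared sites. The highest-scoring was 3R:12707329-12708703, with a score of 0.72, and the nearest region of replicate 1 lay 30.1 kb away. The second was 3R:12614070-12615485, with a score of 0.69. It was the only member of either replicate that the series-level list did not hold, and the nearest region of that list ended 2.32 kb before it. At the low end of the marked stretch lay 3R:12548188-12549604, with a score of 0.47, and 3R:12565591-12567065, with 0.68. The narrowest, 3R:12608956-12610263, scored 0.62, and the widest, 3R:12689906-12691447, scored 0.59. Each of these 4 overlapped a region of the series-level list. So did 3R:12738868-12740386, with a score of 0.51. The last was 3R:12757962-12759368, with a score of 0.58, the member of replicate 2 nearest to the Abd-B end.

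The replicates thus agreed on part of the interval's regions. Of the 4 members of replicate 1, 3 overlapped replicate 2, or 75.0% (95% exact binomial interval 19.4 to 99.4%), against 93.3% in the low flank, 94.1% in the high flank and 90.5% over 3R. Of the 12 members of replicate 2, 3 overlapped replicate 1, or 25.0% (5.49 to 57.2%), against 43.9%, 51.7% and 35.9%. The intervals of the bithorax shares were wide and held every one of these values, so with so few members no difference was detectable. These intervals treat regions as independent, which neighbours are not. In bases, the replicates shared 6.48 kb of the interval, or 68.8% of what replicate 1 covered there and 31.1% of what replicate 2 covered, against 87.2% and 32.6% over 3R. Replicate 2 covered 2.22 times as many bases of the interval as replicate 1, against 2.68 times over 3R.

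Many members of the series-level list overlapped neither replicate. Of its 27, 4 overlapped both replicates, 8 overlapped replicate 2 only, 1 replicate 1 only and 14 neither. Among the 4 was the region that crosses the low end, whose overlaps with the replicates lay outside the interval. The share with neither was 51.9% (95% exact binomial interval 31.9 to 71.3%), against 27.3% in the low flank, 37.0% in the high flank and 34.9% over 3R. The values for the high flank and 3R lay within the binomial interval of the members and that for the low flank below it, and the difference was not tested, since neighbouring regions are not independent. Members in neither replicate were narrow, with a median width of 1171.5 bp, against 4376.5 bp for the 4 members in both, which include the region that crosses the low end. The same contrast was seen over 3R, at 1211 against 3781 bp, so it was not particular to the interval. The narrowest region on 3R was 1001 bp wide in the series-level list, against 1304 bp in replicate 1 and 1301 bp in replicate 2. How the authors combined the replicates into this list is not stated.

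By score, the first member of the series-level list was the 0.67 of 3R:12651819-12656332 and the second the 0.59 of the region that crosses the low end. The next 3 overlapped neither replicate. They were 3R:12703518-12704556 with 0.51, 3R:12634955-12636681 with 0.50 and 3R:12746546-12747546 with 0.50. Of the 5 highest-scoring members, 2 thus overlapped a replicate. For the region that crosses the low end, these overlaps lay outside the interval. By width, the fourth and the fifth member each overlapped replicate 2 only. They were 3R:12758094-12760879, of 2.79 kb with a score of 0.36, which is also the member nearest to the Abd-B end, and 3R:12688851-12691472, of 2.62 kb with a score of 0.45.

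Members were narrow for their list in replicate 2 and the series-level list. In replicate 2 the median width was 1446 bp in the interval, against 1917.5 bp in the low flank, 2393 bp in the high flank and 2014 bp over 3R, and 2 of the 12 members were wider than the median of 3R. In replicate 1, 50 of the 85 windows of 3R had a lower median width than the interval, and 8 had one in the series-level list. None had a lower one in replicate 2, where the interval held 12 regions against a median of 30 per window. In that replicate 9 of the 12 members were among the narrowest 25% of regions on 3R, at or below 1550 bp, and the narrowest region of the list on this arm was 1301 bp wide. Members of the series-level list had a median width of 1418 bp, against 1738 bp over 3R, and 9 of 27 members exceeded that value. In replicate 1 the median of 2167 bp was close to the 2089 bp of 3R, with 2 of 4 members above it, so the narrow width was not seen there.

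By score, replicate 2 and the series-level list placed the members below the middle of 3R, and replicate 1 placed them near it. The median score was 0.59 in replicate 2, against 0.66 over 3R, and 4 of 12 members exceeded that value. It was 0.44 in the series-level list, against 0.46, with 9 of 27 above. In replicate 1 it was 0.74, against 0.71, with 2 of 4 above. The low flank was also below 3R in replicate 2 and the series-level list, with medians of 0.611 and 0.444, near the interval's 0.586 and 0.438. The high flank was not, at 0.659 and 0.480. Of the 85 windows of 3R, 6 had a lower median score than the interval in replicate 2 and 11 in the series-level list. No member of the 3 lists reached the score that marks the top 10% of regions on 3R, which was 1.06 in replicate 1, 1.01 in replicate 2 and 0.73 in the series-level list. Among 4, 12 and 27 members a share of 10% is itself few regions, so this absence says little. Regions with scores above 1 lay in both flanks in replicate 2 and in the series-level list, and in the low flank in replicate 1.

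**Figure D4:**
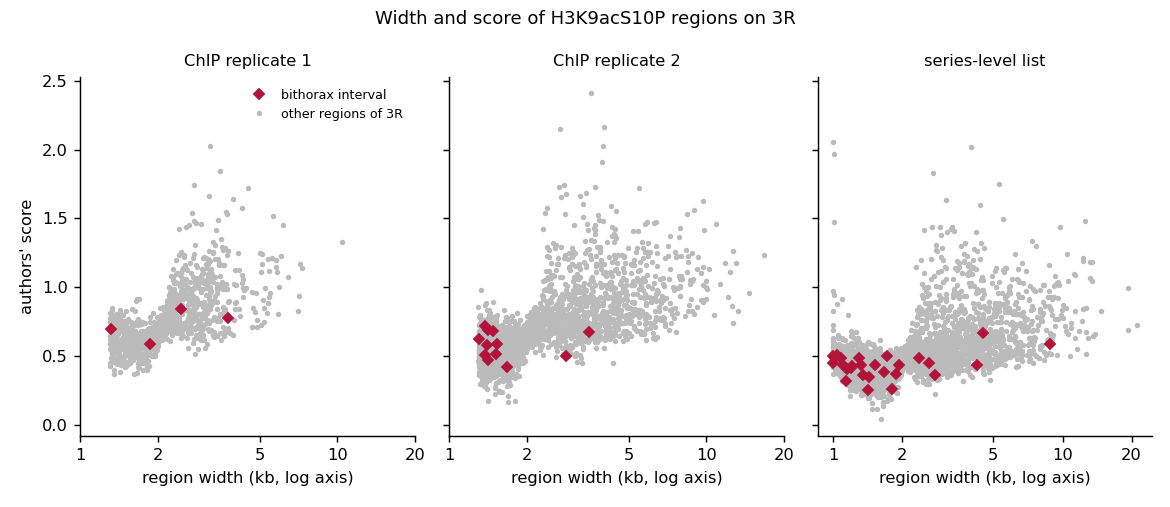
Width in kb (log axis) and score of each region on 3R, for each list, with the members of the bithorax interval as red diamonds and all other regions of the arm as grey points. In replicate 2 most members lie at the narrow side of the cloud, with 2 of 12 above the median width of 3R and 4 of 12 above its median score. In the series-level list they are spread more widely, with 9 of 27 above the median of 3R on each measure. The highest member scores are 0.84, 0.72 and 0.67 from left to right, and scores are comparable only within 1 list.

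The spaces between regions were long. In replicate 1 the interval had 5 gaps, with a median of 62.0 kb, against 7.04 kb over 3R. In replicate 2 it had 13 gaps with a median of 17.6 kb, against 2.99 kb over 3R. The 27 gaps of the series-level list had a median of 6.85 kb, against 2.03 kb. In the flanks, medians lay between 1.45 and 8.17 kb over the 3 lists. The longest single gap was nevertheless shorter in the interval than in the high flank in each list, at 122.8 against 232.3 kb in replicate 1, 68.2 against 71.9 kb in replicate 2 and 39.1 against 67.7 kb in the series-level list. In the low flank the longest gaps were 86.7, 32.2 and 32.3 kb in the same order, each shorter than that of the interval. Gaps were cut at the ends of the interval, which shortens the first and the last of them.

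The longest gap in replicate 1 was 3R:12677241-12800000, which covered the whole upper end of the interval, 122.8 kb in all and 129.7 kb with its part beyond the end. On 3R, 43 of 1101 gaps of that replicate were longer. Next came 3R:12480000-12558283, of 78.3 kb, at the Ubx end, and 3R:12590558-12652562, of 62.0 kb, in the middle. The last 2 were 3R:12559596-12588688, of 29.1 kb, and 3R:12656331-12674775, of 18.4 kb. Each of the 5 gaps was thus longer than the median gap of the arm.

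In replicate 2 the longest gap was at the other end. It was 3R:12480000-12548187, of 68.2 kb, on the Ubx side, and 19 of 2579 gaps of that replicate on 3R were longer than its full 69.5 kb. The gap at the Abd-B end, 3R:12759369-12800000, followed with 40.6 kb inside the interval. The others among the first 5 were 3R:12615486-12652602 of 37.1 kb, 3R:12708704-12738867 of 30.2 kb and 3R:12567066-12588850 of 21.8 kb. The longest gap of replicate 1 was broken by 4 regions of replicate 2, and the gap of replicate 2 on the Ubx side lay wholly within that of replicate 1.

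The series-level list divided the same stretches further. Its longest gap was 3R:12760880-12800000, at the Abd-B end, of 39.1 kb, and with its part beyond the end it spanned 46.2 kb, with 24 of 3876 gaps on 3R longer. The next were 3R:12512454-12545680 of 33.2 kb and 3R:12489704-12511104 of 21.4 kb, both towards the Ubx end, then 3R:12590674-12609002 of 18.3 kb and 3R:12708543-12725519 of 17.0 kb. The first 50 kb inside the Ubx end held only 3 regions of this list, among them the one that crosses the end, and the other 2, 3R:12488409-12489703 and 3R:12511105-12512453, overlapped neither replicate. The longest gap, at the Abd-B end, was free of regions in all 3 lists.

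Gaps over 10 kb took up more of the interval than of the arm in each list. They held 97.1% of the bases of the interval in replicate 1, against 82.9% of those of 3R. In replicate 2 the values were 88.2% and 56.5%, and in the series-level list 63.0% and 37.2%. Gaps over 50 kb held 82.2% of the interval in replicate 1, 21.3% in replicate 2 and 0% in the series-level list, against 56.3%, 15.4% and 4.09% of 3R. They numbered 3 in the interval in replicate 1, 1 in replicate 2 and 0 in the series-level list, against 144, 58 and 18 on 3R, and single gaps on 3R reached 353.3 kb in replicate 1, 216.3 kb in replicate 2 and 83.9 kb in the series-level list.

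**Figure D5:**
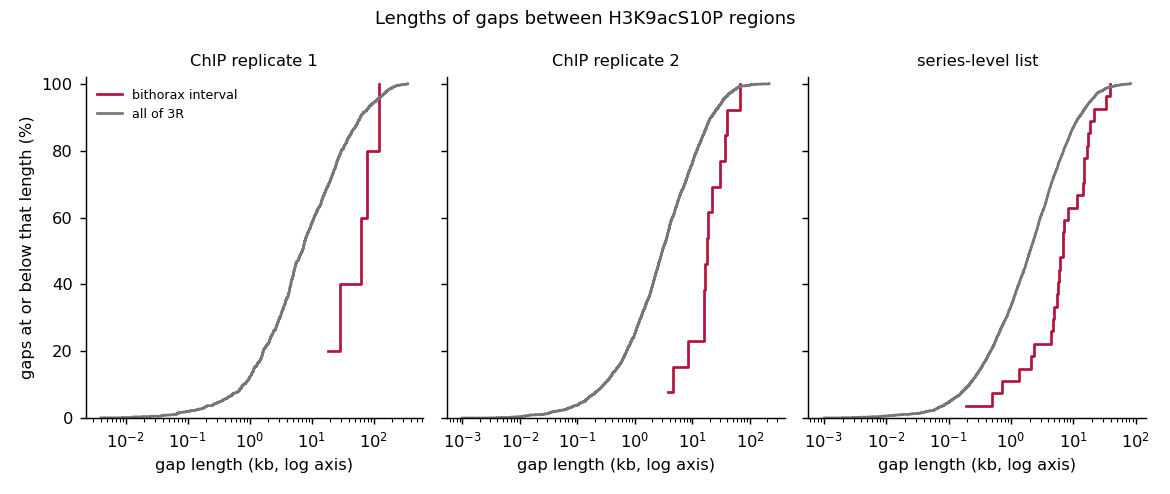
Share of gaps at or below a given length, in percent, against gap length in kb (log axis), for the bithorax interval (red) and all of 3R (grey), with 1 panel per list. The red line lies to the right of the grey line over most of its course, with medians of 62.0, 17.6 and 6.85 kb against 7.04, 2.99 and 2.03 kb from left to right.

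The lists hold regions and no reads, so library depth is unknown. A stretch without a region means that the authors' threshold was not passed there, not that the mark was absent. Input coverage, the density of histone H3 and how well reads align within the interval were not used here, and their part in the low coverage was not tested.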

How the data were processed

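H3K9acS10P ChIP and input libraries were made from Oregon-R embryos; 3 lists of enriched regions were analysed, 1 per ChIP replicate and 1 for the series, and no input list was used. The aligner was Bowtie 0.12.7, according to the submitters' processing notes, and regions are on FlyBase r5, per the file headers. The region caller, its threshold and the way of combining replicates are not stated in these sources. Each deposited region carries a score made by the authors on an unstated scale.

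Regions with at least 1 bp in the interval were members. Covered bases were counted on the union of regions, clipped at the interval's ends. The interval was compared with 500 kb on each side and, in place of random intervals, with non-overlapping windows of equal length on 3R, by an exact two-sided sign-flip permutation test over the 2 ChIP replicates. Bins of 10 kb started at the interval's low end. Shares of regions carry 95% exact (Clopper-Pearson) intervals, which cover counting error only. Alternatives were a score filter, merging within 500 bp, other flanks, ends and grids, 50% overlap, and each replicate alone. The regions named were all members of lists with 12 or fewer, otherwise the 5 highest-scoring, the 5 widest and those at the ends, and the 5 longest gaps of each list; other members of the series-level list were singled out after their values were seen. The 80 kb parts, the 50 kb stretches and the width and score classes were added after seeing the data. The members and lists were chosen with earlier results of these data known. Functions were tested on 50 simulated lists. Python 3.11.15, NumPy 2.4.6, SciPy 1.17.1 and Matplotlib 3.10.9 were used.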

Additional observations from a re-analysis of the deposited data

How the results depend on the processing

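The covered share of the bithorax interval stayed below that of its flanks and below the mean of the 3R windows in both replicates and in the series-level list, under each alternative run. Over those alternatives the mean difference over replicates lay between -15.5 points (flanks of 250 kb) and -7.92 points (regions at or above the median score) against the flanks, and between -12.2 and -8.63 points against the windows; with 1 replicate left out it was -18.2 or -7.87 points against the flanks and -18.0 or -6.12 against the windows. Keeping regions at or above the median score lowered the number of members to 2 in replicate 1, 4 in replicate 2 and 9 in the series-level list, by construction. It lengthened the longest gap to 172.6 kb in replicate 1, 91.3 kb in replicate 2 and 145.3 kb in the series-level list. The mean number of members, 8, was between 4 and 12 with 1 replicate left out. Replicate overlap stayed within its intervals. No paired analysis was possible because the input samples, which share numbers with the ChIP samples, have no region list here. With no read counts, the lists give no depth.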

Other observations

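A second stretch with few regions lay close to the bithorax interval, within its high flank. From 200 kb above the interval's end, the 200 kb at 3R:13000001-13200000 held no region in replicate 1, 5 regions covering 4.05% in replicate 2 and 13 regions covering 8.62% in the series-level list, against 17.5%, 29.8% and 36.9% of the 200 kb between it and the interval. The stretch was chosen after its values were seen. It was less covered than the bithorax interval in each list, where the interval had 2.94% in replicate 1, 6.52% in replicate 2 and 14.1% in the series-level list. The stretch lowers the mean of the high flank, so the interval's distance from that flank is larger over the nearest bases than over all 500 kb.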
